A study of Rattus norvegicus with 9 samples.

Results

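The pyruvate dehydrogenase complex and the enzymes that open, drive and close the citric acid cycle were described in smooth muscle cells cultured from the thoracic aorta of the rat. The genes were chosen by name in the deposited table: Pdha1, Pdhb, Dlat, Dld, Pdk2, Cs, Idh3a, Ogdh and Mdh2. Of these 9 names, 8 had a row among the 32792 rows of the table, and no row bore the name Ogdh. RNA was sequenced in 3 groups of 3 libraries. The first group overexpressed cathepsin D (CTSD), a protease of the lysosome, and received advanced glycation end products (AGEs), proteins modified by sugars that build up in diabetes, for 24 h at a dose of 200 µg/mL. The next had the empty vector and the same AGEs. The last had the empty vector and, in place of AGEs, bovine serum albumin (BSA). They are called CTSD AGEs, vector AGEs and vector BSA cells below, and all 3 groups were transfected. Untransfected cells were part of the study too and are not analysed here. The sources used here give neither the promoter of the vector nor the cultures from which the libraries of a group were made. The p-values below therefore measure the spread between these libraries, which may be technical.

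Pyruvate made by glycolysis enters mitochondria and is turned into acetyl-CoA by the pyruvate dehydrogenase complex, built from a pyruvate-oxidizing E1 enzyme of alpha and beta chains, an acetyl-transferring E2 core and an E3 enzyme that reoxidizes the lipoyl arms. Pyruvate dehydrogenase kinases phosphorylate the E1 alpha chain and switch the complex off, and phosphatases switch it on again. Citrate synthase then joins acetyl-CoA to oxaloacetate, isocitrate dehydrogenase and 2-oxoglutarate dehydrogenase release carbon dioxide, and malate dehydrogenase restores oxaloacetate. The title of the study sets CTSD against glycolysis and the phenotype of smooth muscle, and these genes stand where glycolysis hands over to mitochondria.

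Levels are in FPKM, that is, fragments scaled to the length of the gene model and to all fragments of the library that were assigned to genes. The 9 libraries held 4492416 to 5341647 assigned fragments, worked out from the FPKM steps. Ctsd, the overexpressed gene, had 195, 199.7 and 203 FPKM in CTSD AGEs libraries, 13.2, 14.8 and 13.7 FPKM in vector AGEs libraries, and 11.7, 14.6 and 12.9 FPKM in vector BSA libraries. The smooth muscle identity carried by the labels was checked with 10 markers. Of these, 5 passed the filter on low values, Myocd was listed at 0 in all libraries, and Myh11, Cnn1, Des and Lmod1 stayed below the filter. Genes that cells of most kinds need, such as Tfam and Lipt1, were also listed at 0 in all libraries, so a 0 in this table is read only as a listing, here and for the markers below. The summed level of the 10 markers was 213 to 217 FPKM in CTSD AGEs, 138 to 139 FPKM in vector AGEs and 157 to 175 FPKM in vector BSA libraries. Tpm2 made up most of it, with means of 132, 80.2 and 106 FPKM in that order of groups. Acta2 averaged 22.8, 8.25 and 8.45 FPKM, Tagln 22.3, 11.3 and 12.1 FPKM, and Smtn 19.98, 18.8 and 18.8 FPKM. Cald1 went the other way under CTSD, with 16.6, 19.6 and 20.99 FPKM. The sum thus moved with the groups mainly through Tpm2, and its part in the differences below was not tested. The markers of other cell types were low. The sums were at most 0.136 FPKM for 5 endothelial markers in any library, with Cdh5 and Kdr at 0. They were at most 2.57 FPKM for 5 adventitial fibroblast markers, with Lum at 0. Of these, Pdgfra passed the filter, with means of 2.36, 2.01 and 2.15 FPKM in the same order of groups. The sums were at most 1.76 FPKM for 5 macrophage markers, with Ptprc, Adgre1 and C1qa at 0, while Cd68 passed the filter. The muscle markers Myh11, Cnn1, Des and Lmod1 had lower means than Pdgfra in every group. In bulk RNA, fewer cells of a type and less RNA per cell cannot be told apart.

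Under AGEs, these genes moved both ways in CTSD-overexpressing cells. Pdk2, an inhibitory kinase, and Cs, the first enzyme of the cycle, rose. Pdha1, Dld and Idh3a, the catalytic chain of E1, the E3 enzyme shared among several complexes, and the catalytic chain of the NAD-dependent isocitrate dehydrogenase, fell. Pdhb, Dlat and Mdh2 did not pass the test. Each gene is described below, and the promoters of 4 of the movers are printed first, to show the sequence in front of genes that moved in opposite directions.

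The sequences are the 250 bases before the RefSeq gene start on the rat assembly GRCr8, printed in the direction of transcription, with motif matches in capitals. The positions on GRCr8 are not comparable with the deposited gene positions given below. The upper pair belongs to genes that were higher in CTSD AGEs than in vector AGEs cells, the lower pair to genes that were lower.
Pdk2, chr10:80483913-80484162, minus strand: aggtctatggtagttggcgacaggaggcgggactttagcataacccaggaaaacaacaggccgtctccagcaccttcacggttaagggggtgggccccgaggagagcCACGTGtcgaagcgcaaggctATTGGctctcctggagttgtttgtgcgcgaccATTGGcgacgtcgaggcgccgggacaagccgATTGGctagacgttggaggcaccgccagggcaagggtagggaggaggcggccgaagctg
Cs, chr7:1348139-1348388, plus strand: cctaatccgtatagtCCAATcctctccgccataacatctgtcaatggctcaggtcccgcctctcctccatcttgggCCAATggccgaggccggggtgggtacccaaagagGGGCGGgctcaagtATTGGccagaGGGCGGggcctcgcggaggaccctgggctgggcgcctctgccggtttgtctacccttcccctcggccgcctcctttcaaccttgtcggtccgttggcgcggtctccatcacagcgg
Pdha1, chrX:38508908-38509157, plus strand: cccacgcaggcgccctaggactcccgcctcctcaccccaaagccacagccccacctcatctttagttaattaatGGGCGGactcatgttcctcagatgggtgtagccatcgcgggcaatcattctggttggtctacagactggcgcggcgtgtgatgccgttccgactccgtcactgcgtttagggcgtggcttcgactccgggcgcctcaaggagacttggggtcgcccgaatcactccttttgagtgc
Dld, chr6:53652348-53652597, minus strand: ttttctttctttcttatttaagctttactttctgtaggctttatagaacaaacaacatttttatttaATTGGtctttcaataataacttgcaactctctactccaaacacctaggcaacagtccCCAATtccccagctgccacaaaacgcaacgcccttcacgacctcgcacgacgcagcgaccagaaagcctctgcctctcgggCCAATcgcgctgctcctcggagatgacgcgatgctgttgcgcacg
Searches on both strands covered CCAAT (NFY), GGGCGG (SP factors), CCGGAAG (ETS factors), the NRF1 consensus, TNAAGGTCA (ERR) and ACGTG (the core of HIF sites), which is also found on each strand of the E-box CACGTG. The promoters of Pdk2, Cs and Dld each held 3 CCAAT matches (ATTGG where the match is on the other strand), so CCAAT was present on both sides of the split. Pdha1 held 1 GGGCGG match, 176 bases before the start, and Cs held 2. Pdk2 held a CACGTG, which counts as 2 overlapping matches of ACGTG. RefSeq promoters were matched for 8 of the 9 names, without Idh3a. Across those 8, GGGCGG occurred in 5, CCAAT in 4 and ACGTG in 4, against 63.8%, 36.6% and 23.9% of the 6236 promoters of tested genes and 32.4%, 34.3% and 16.9% of all 27457 promoters. CCGGAAG occurred in 1, that of Mdh2, against 17.6% of the promoters of tested genes and 7.74% of all promoters. The NRF1 consensus and TNAAGGTCA occurred in none of the 8, against 10.8% and 0.369% of the promoters of tested genes and 4.17% and 1.002% of all promoters. A match is a run of letters, and no binding was measured.

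The comparison of CTSD AGEs with vector AGEs cells asks what CTSD does in the presence of AGEs. Differences are given as log2 changes, the difference of mean log2(FPKM + 1), with their standard error (SE), and were tested with limma over all 8532 genes that had at least 1 FPKM in at least 3 libraries; a gene was called at an adjusted p under 0.05. All 8 genes passed that filter. Of the 8, 2 were called higher and 3 lower, while 30.7% of all tested genes were called, 18.6% higher and 12.0% lower. The groups did not overlap for 6 of the 8, 3 in each direction, and for 43.9% of all tested genes, 26.2% higher and 17.7% lower. The median log2 change of the 8 was 0.01, close to the 0.05 of all tested genes, while the median size of the change, whichever its sign, was 0.34 for the 8 and 0.23 for all tested genes.

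Within the complex, the chains did not move together. Pdha1 (ENSRNOG00000025383, deposited at chrX:37329779-37343410), the E1 alpha chain that holds the sites of inhibitory phosphorylation, had 39.1, 43.5 and 37.9 FPKM in CTSD AGEs libraries, 53.0, 51.2 and 57.0 FPKM in vector AGEs libraries, and 49.4, 48.2 and 47.7 FPKM in vector BSA libraries. Every CTSD AGEs library lay below all 6 vector libraries. The mean fell to 40.2 ± 2.94 FPKM in CTSD AGEs, against 53.7 ± 2.99 FPKM in vector AGEs cells (SD, n = 3 each), a log2 change of -0.41 (SE 0.07, limma adjusted p = 0.00118). Pdhb (ENSRNOG00000007895, chr15:18539210-18546854), the E1 beta chain that pairs with it, had 104, 99.6 and 110.2 FPKM in CTSD AGEs libraries, 111, 103 and 109 FPKM in vector AGEs libraries, and 95.4, 105 and 102 FPKM in vector BSA libraries. The 3 groups overlapped, and the log2 change between CTSD AGEs and vector AGEs cells was -0.04 (95% confidence interval -0.17 to 0.08). The ratio of Pdha1 to Pdhb FPKM was accordingly 0.386 ± 0.047 in CTSD AGEs, 0.499 ± 0.022 in vector AGEs and 0.481 ± 0.032 in vector BSA libraries (SD, n = 3).

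Dlat (ENSRNOG00000009994, chr8:55062551-55087832), the E2 core that carries the acetyl group, had 43.1, 43.1 and 45.5 FPKM in CTSD AGEs libraries, 40.7, 42.1 and 39.9 FPKM in vector AGEs libraries, and 36.8, 33.9 and 34.5 FPKM in vector BSA libraries. The 3 groups stood in steps without overlap. The step between CTSD AGEs and vector AGEs cells did not pass the test (log2 change 0.10, 95% confidence interval -0.03 to 0.23, limma adjusted p = 0.242). Dld (ENSRNOG00000006364, chr6:50597677-50618694) encodes E3, which also serves the 2-oxoglutarate and branched-chain dehydrogenases and the glycine cleavage system. It had 31.4, 36.4 and 34.7 FPKM in CTSD AGEs libraries, 50.8, 40.6 and 64.2 FPKM in vector AGEs libraries, and 49.2, 45.8 and 51.8 FPKM in vector BSA libraries. The vector AGEs libraries were spread more widely than the other groups, yet all lay above the CTSD AGEs libraries. Dld fell by 0.57 on the log2 scale against vector AGEs cells (SE 0.14, limma adjusted p = 0.00955), and by 0.40 without vector AGEs replicate 3, the highest library. The ratio of Dld to Dlat was 0.779 ± 0.060 in CTSD AGEs, 1.27 ± 0.323 in vector AGEs and 1.40 ± 0.090 in vector BSA libraries.

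**Figure D1:**
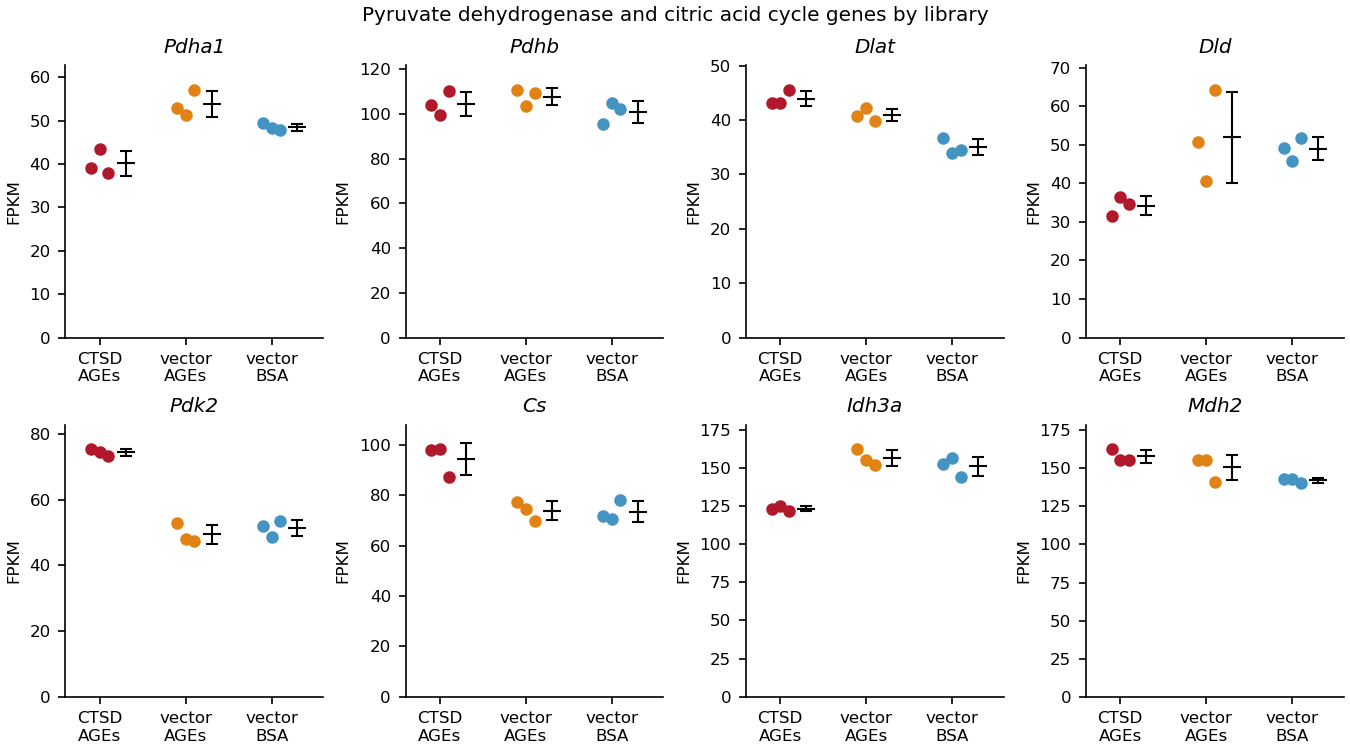
FPKM of the 8 genes in each library (vertical axes, each starting at 0) for CTSD AGEs, vector AGEs and vector BSA cells; dots are libraries, and the bars beside them are mean and SD of 3 libraries. Pdha1, Dld and Idh3a lie lower and Pdk2 and Cs higher in all 3 CTSD AGEs libraries than in all 6 vector libraries, while the groups of Pdhb overlap.

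Pdk2 (ENSRNOG00000004172, chr10:82839153-82852660), one of 4 kinases that phosphorylate E1 alpha, had the smallest adjusted p of the 8. It had 75.3, 74.5 and 73.1 FPKM in CTSD AGEs libraries, 52.8, 48.0 and 47.3 FPKM in vector AGEs libraries, and 52.0, 48.7 and 53.5 FPKM in vector BSA libraries. The CTSD AGEs libraries lay close together and far above the vector libraries, which overlapped. The mean of 74.3 ± 1.09 FPKM was 50.5% above the 49.4 ± 3.01 FPKM of vector AGEs cells (log2 change 0.58, SE 0.06, limma adjusted p = 8.87e-05). With Pdha1 lower, the ratio of Pdk2 to its substrate Pdha1 was 1.86 ± 0.124 in CTSD AGEs, 0.921 ± 0.085 in vector AGEs and 1.06 ± 0.056 in vector BSA libraries.

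In the cycle, the first enzyme rose and one of the next steps fell. Cs (ENSRNOG00000023520, chr7:2752680-2778963), citrate synthase, had 97.9, 98.3 and 87.3 FPKM in CTSD AGEs libraries, 77.5, 74.6 and 69.9 FPKM in vector AGEs libraries, and 71.9, 70.6 and 78.3 FPKM in vector BSA libraries. All 3 CTSD AGEs libraries exceeded all vector libraries, and the mean was 27.7% above that of vector AGEs cells (log2 change 0.35, SE 0.07, limma adjusted p = 0.0030). Idh3a (ENSRNOG00000010277, chr8:59164572-59183908), the catalytic alpha chain of NAD-dependent isocitrate dehydrogenase, had 123, 125 and 122 FPKM in CTSD AGEs libraries, 162, 155 and 152 FPKM in vector AGEs libraries, and 152, 156 and 144 FPKM in vector BSA libraries. The gap between CTSD AGEs and vector libraries was wider than the range within any group. Idh3a fell by 0.34 on the log2 scale against vector AGEs cells (SE 0.05, limma adjusted p = 0.000401). The ratio of Cs to Idh3a was 0.766 ± 0.042 in CTSD AGEs, 0.473 ± 0.011 in vector AGEs and 0.489 ± 0.048 in vector BSA libraries.

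Mdh2 (ENSRNOG00000001440, chr12:23941448-23954431), the mitochondrial malate dehydrogenase that closes the cycle, had 162, 155 and 156 FPKM in CTSD AGEs libraries, 155, 156 and 141 FPKM in vector AGEs libraries, and 143, 143 and 140.1 FPKM in vector BSA libraries. The groups under AGEs overlapped (log2 change 0.07, 95% confidence interval -0.04 to 0.18). The missing name Ogdh stands for the E1 enzyme of the 2-oxoglutarate dehydrogenase complex. The table has a row LOC103693780 (ENSRNOG00000005130, chr14:86414949-86613327) that it describes as a mitochondrial 2-oxoglutarate dehydrogenase-like gene; this row was looked up after the values were known, is not counted among the 8, and may or may not stand for Ogdh. It had 109, 104 and 111 FPKM in CTSD AGEs libraries, 75.6, 76.9 and 73.3 FPKM in vector AGEs libraries, and 88.6, 92.0 and 79.8 FPKM in vector BSA libraries, and it rose by a log2 change of 0.51 against vector AGEs cells (SE 0.06, limma adjusted p = 0.000165).

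**Figure D2:**
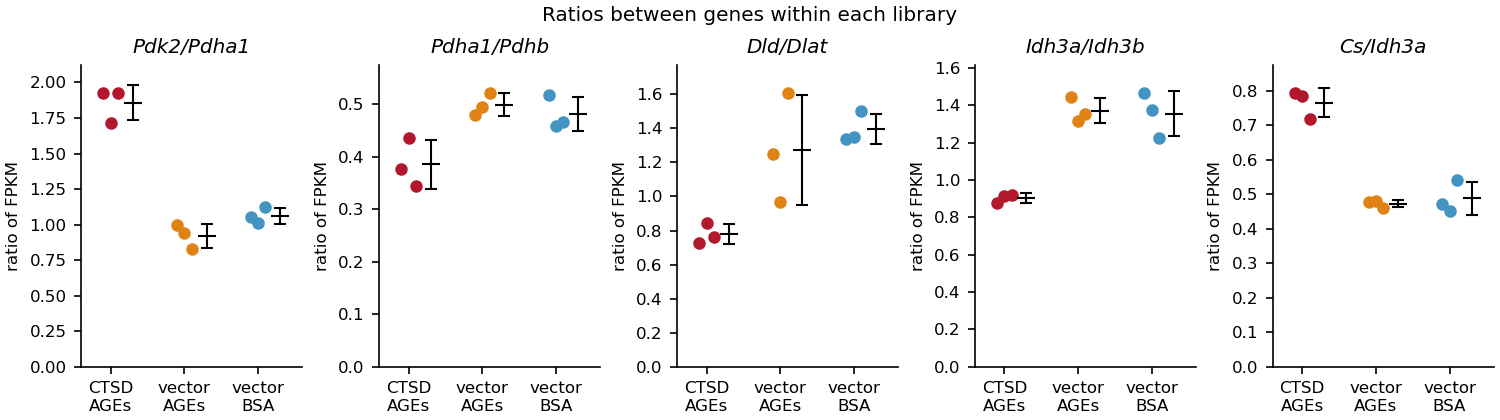
Ratios of FPKM between pairs of genes within each library (vertical axes from 0) for CTSD AGEs, vector AGEs and vector BSA cells; dots are libraries, bars are mean and SD of 3 libraries. Pdk2 over Pdha1 is 1.71 to 1.93 in CTSD AGEs libraries, above every vector library, and Idh3a over Idh3b is 0.875 to 0.922, below every vector library.

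The remaining genes of the complex, its regulators and the cycle followed the same mixed course under CTSD. A list of 31 genes, which includes the genes above, was drawn up with earlier results of these data known. Of its 25 tested genes, 8 were called higher and 5 lower against vector AGEs cells. Over all tested genes, 18.6% were called higher and 12.0% lower. Among the 5 tested subunits of the complex, the 3 called ones were all lower: Pdha1, Dld and Pdhx, the E3-binding protein that tethers Dld to the core. Pdhx was scarce, with 2.19, 2.08 and 1.37 FPKM in CTSD AGEs libraries, 5.19, 4.95 and 4.10 FPKM in vector AGEs libraries, and 3.05, 3.11 and 3.60 FPKM in vector BSA libraries. It rested on 12 to 47 fragments a library, and its log2 change of -1.004 (limma adjusted p = 0.00103) is on the log2(FPKM + 1) scale, which understates changes at such levels; the ratio of means was 0.396. Pdha2, the testis form of E1 alpha, was listed at 0 in all libraries.

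Of the 6 tested kinases and phosphatases, Pdk2 was the 1 called against vector AGEs cells, while 30.7% of all tested genes were called. Pdk1, the kinase known as a hypoxia target, had a log2 change of -0.01 (95% confidence interval -0.23 to 0.20), and Pdk3 had 0.02 (-0.18 to 0.21). The summed FPKM of Pdk1 to Pdk4 was 164 ± 2.39 in CTSD AGEs, 139 ± 9.14 in vector AGEs and 119 ± 5.08 in vector BSA libraries, and Pdk2 made up 45.4 ± 1.31% of it in CTSD AGEs, 35.5 ± 1.11% in vector AGEs and 43.4 ± 3.24% in vector BSA libraries. Pdk4, the kinase known to rise in fasting, gave at most 2.57% of the sum in any library. Pdp2, a phosphatase, was listed at 0 in all libraries.

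Of the 15 tested cycle enzymes, 7 were called higher and 3 lower against vector AGEs cells, beside the 18.6% and 12.0% of all tested genes. By the size of the change, the naming rule picked Sucla2, Dld and Idh2; others are named after their values were seen. Sucla2, the ATP-forming chain of succinyl-CoA ligase, had 20.6, 18.8 and 21.7 FPKM in CTSD AGEs libraries, 34.0, 31.5 and 39.1 FPKM in vector AGEs libraries, and 35.8, 32.2 and 37.0 FPKM in vector BSA libraries, a fall of 0.75 on the log2 scale (limma adjusted p = 0.000261). Idh2, the NADP-dependent mitochondrial isocitrate dehydrogenase, rose by 0.52 (limma adjusted p = 0.000355). Sdha and Sdhb, the catalytic flavoprotein and iron-sulfur subunits of succinate dehydrogenase, rose by 0.23 and 0.21.

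Within NAD-dependent isocitrate dehydrogenase the direction differed between subunits of 1 enzyme. Idh3b and Idh3g, the beta and gamma chains that assemble with Idh3a, rose by 0.26 (limma adjusted p = 0.00579) and 0.23 (limma adjusted p = 0.00808), while Idh3a fell. Idh3b had 136 ± 4.44 FPKM in CTSD AGEs, 114 ± 3.52 FPKM in vector AGEs and 112 ± 7.11 FPKM in vector BSA cells. The ratio of Idh3a to Idh3b was 0.904 ± 0.026 in CTSD AGEs, 1.37 ± 0.066 in vector AGEs and 1.36 ± 0.121 in vector BSA libraries. The ratio of Idh3b to Idh3g was 0.648 to 0.658 in CTSD AGEs, within the 0.598 to 0.661 of vector AGEs libraries. Sdhc and Sdhd, the membrane anchors of succinate dehydrogenase, which respiring cells need, gave 1 fragment each over all libraries; such rows are read as near 0 in the table, not as silent genes. Ogdhl also gave 1 fragment.

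**Figure D3:**
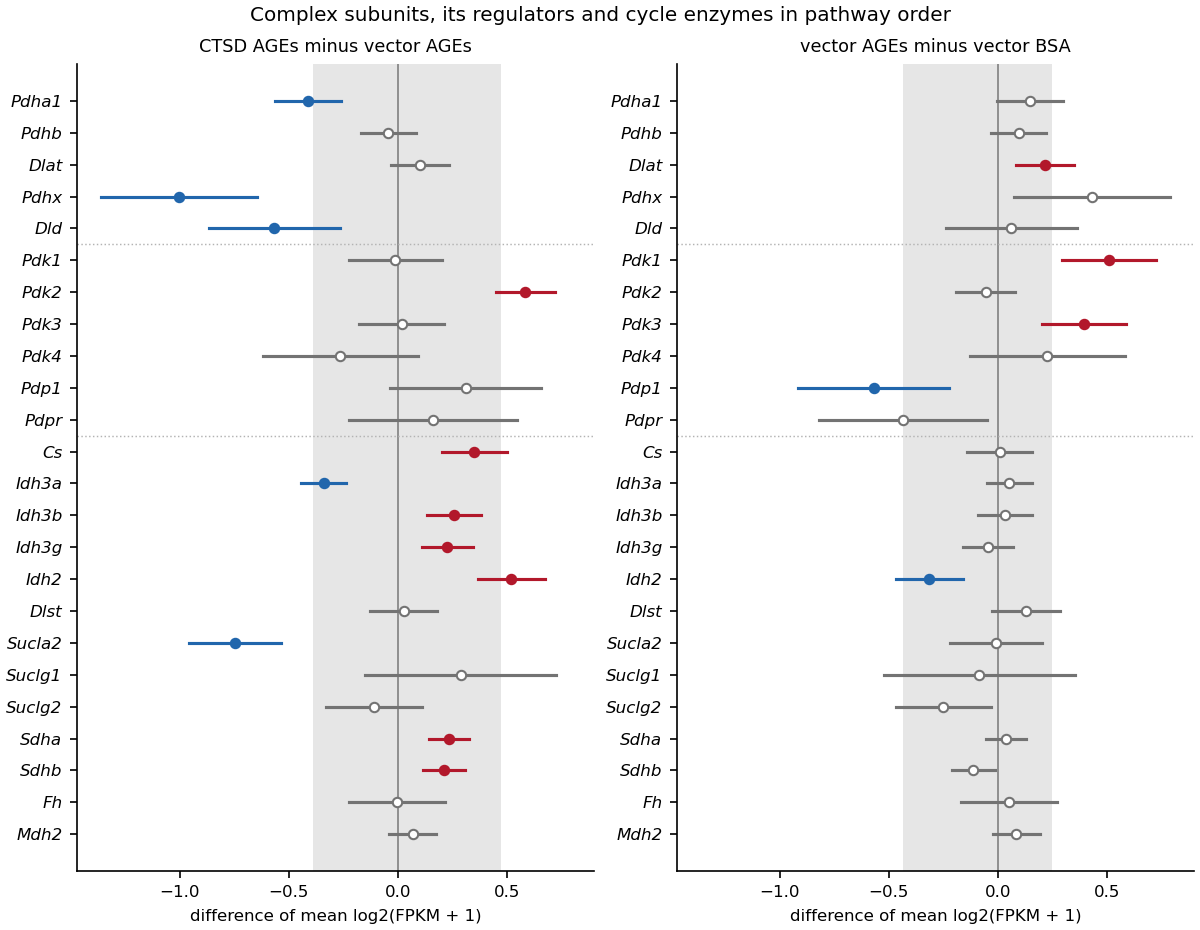
Difference of mean log2(FPKM + 1) with 95% confidence intervals for 24 tested genes in pathway order, CTSD AGEs minus vector AGEs on the left and vector AGEs minus vector BSA on the right; red is called higher, blue called lower, open gray not called, and the gray band spans the 10th to 90th percentile of all tested genes. Left, 7 of these genes are higher and 5 lower; right, 3 are higher and 2 lower. Both panels use the vector AGEs libraries.

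The effect of AGEs themselves was asked in vector AGEs against vector BSA cells, a comparison that shares the vector AGEs libraries with the one above. Of the 8 genes, 1 was called, higher, against 15.0% of all tested genes, 6.05% higher and 8.92% lower. That gene was Dlat, at 40.9 ± 1.13 FPKM in vector AGEs and 35.1 ± 1.50 FPKM in vector BSA cells (SD, n = 3 each; log2 change 0.22, SE 0.06, limma adjusted p = 0.0362). With replicate as a block the adjusted p of Dlat was 0.0618, and leaving out vector AGEs replicate 1 or 2, or vector BSA replicate 2 or 3, gave 0.0929 to 0.108. Pdha1 was higher in all 3 vector AGEs than in all 3 vector BSA libraries, without passing the test (log2 change 0.15, 95% confidence interval -0.0046 to 0.30). Non-overlapping groups were found for these 2 of the 8 and for 32.5% of all tested genes, 12.8% higher and 19.8% lower.

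For the other genes, the intervals reflect the spread between these libraries, which may be technical. They do not cover the choice of scaling. Log2 changes of vector AGEs against vector BSA were 0.09 for Pdhb (95% confidence interval -0.03 to 0.22), 0.05 for Idh3a (-0.05 to 0.15) and 0.08 for Mdh2 (-0.03 to 0.19). They were 0.01 for Cs (-0.14 to 0.16), -0.06 for Pdk2 (-0.19 to 0.08) and 0.06 for Dld (-0.24 to 0.36), the widest because of its spread under AGEs. The row LOC103693780 fell by 0.20 against vector BSA cells (limma adjusted p = 0.0477). That call was lost with the length trend removed (log2 change -0.11, adjusted p = 0.321), with median-of-ratios scaling (0.152), with the replicate block (0.0642), with quantile normalization (0.0591) and with a library left out (up to 0.149). Among the kinases and phosphatases, 3 of 6 were called, beside 15.0% of all tested genes. Pdk1 and Pdk3 rose, and Pdp1, a phosphatase that reactivates the complex, fell by 0.57 (limma adjusted p = 0.0347). The Pdp1 call was lost with no filter (adjusted p = 0.0630), quantile normalization (0.0807) and 2 groups alone (0.0525). It was also lost without vector AGEs replicate 1 or 2 or vector BSA replicate 1 or 2 (0.0677 to 0.115). Pdk3 had 78.1, 76.3 and 66.1 FPKM in vector AGEs libraries, against 60.0, 58.3 and 49.0 FPKM in vector BSA libraries, and rose by 0.39 (limma adjusted p = 0.0141, and 0.0575 and 0.0505 without vector AGEs replicates 1 and 2). Pdk1 had 13.7, 12.0 and 13.6 FPKM in vector AGEs libraries, all above the 8.97, 8.87 and 8.88 FPKM of vector BSA libraries. Of the 15 cycle enzymes, Idh2 was the 1 called in this comparison, beside the same 15.0% of all tested genes. Idh2 was lower by 0.31 (limma adjusted p = 0.0139, and 0.0511 without vector BSA replicate 3).

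**Figure D4:**
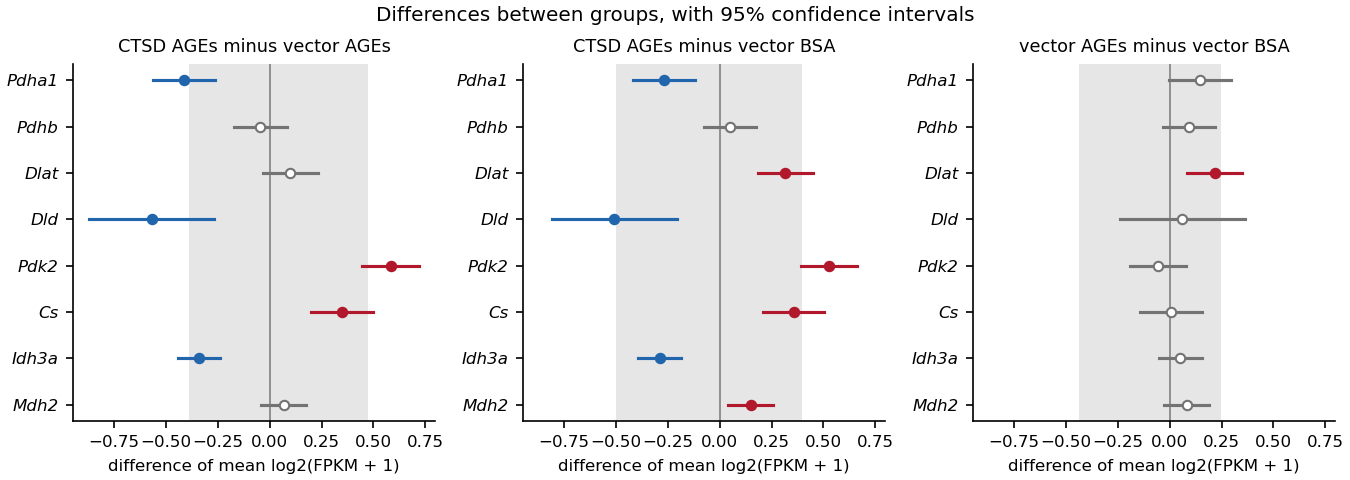
Difference of mean log2(FPKM + 1) with 95% confidence intervals for the 8 genes in the 3 pairwise comparisons; red is called higher, blue called lower, open gray not called, and the gray band spans the 10th to 90th percentile of all tested genes. Pdk2 lies at 0.58 and 0.52 in the panels with CTSD AGEs cells and at -0.06 between the vector groups; each pair of panels shares libraries.

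CTSD AGEs cells were also set against vector BSA cells, a comparison the study's text does not list and that shares libraries with both others. Of the 8 genes, 4 were called higher and 3 lower, while 32.6% of all tested genes were called, 16.3% in each direction; the groups did not overlap for these 7 and for 48.8% of all tested genes, 24.0% higher and 24.8% lower. Pdk2 was higher by 0.52 (limma adjusted p = 0.000214), Cs by 0.36 (0.00291) and Dlat by 0.32 (0.00298). Dlat averaged 43.9 ± 1.41 FPKM in CTSD AGEs and 35.1 ± 1.50 FPKM in vector BSA cells. Idh3a was lower, with a log2 change of -0.29 (limma adjusted p = 0.0013), as were Pdha1 with -0.27 (0.0133) and Dld with -0.51 (0.0168). Mdh2 was higher by 0.15 (limma adjusted p = 0.0381), a call lost when any 1 of the 6 libraries was left out (0.0683 to 0.117). Dld lost its call without CTSD AGEs replicate 1 (adjusted p = 0.0603) or vector BSA replicate 3 (0.0565), and Pdha1 without CTSD AGEs replicate 3 (0.0518). Pdhb was not called (log2 change 0.05, 95% confidence interval -0.08 to 0.18).

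The order of levels, per kilobase of gene model, differed between groups. In CTSD AGEs libraries it ran Mdh2, Idh3a, Pdhb, Cs, Pdk2, Dlat, Pdha1 and Dld, and each gene exceeded the next in every library except Dlat and Pdha1, which overlapped. In vector AGEs libraries Idh3a and Mdh2 overlapped at the top, Pdhb and Cs followed, and Pdha1, Dld and Pdk2 overlapped. Dlat had the lowest mean there, but Dld was below it in replicate 2. In vector BSA libraries the order was Idh3a, Mdh2, Pdhb and Cs, then Pdk2, Dld and Pdha1 with overlap, then Dlat. Levels are per kilobase of each deposited model, so they also depend on how well that model covers the transcript.

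Across the 9 libraries, the genes whose levels ran closest to Pdk2 were Rusc2, Necap1 and Tpst1, with root mean square differences of 0.0455, 0.0510 and 0.0574 in centred log2(FPKM + 1), against a spread of 0.267 for Pdk2 itself. Rusc2 averaged 21.8 FPKM in CTSD AGEs, 14.0 FPKM in vector AGEs and 15.0 FPKM in vector BSA cells. The closest to Idh3a were Tyms, the thymidylate synthase of DNA synthesis, Wrnip1 and Slc4a2, with 0.0387, 0.0387 and 0.0433, against a spread of 0.154 for Idh3a. Tyms averaged 348 FPKM in CTSD AGEs, 433 FPKM in vector AGEs and 433 FPKM in vector BSA cells.

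A pair of rows may share reads with the genes described. LOC679881, described in the table as similar to Dlat, had 65.7 ± 4.81 FPKM in CTSD AGEs, 57.9 ± 2.41 FPKM in vector AGEs and 54.4 ± 2.01 FPKM in vector BSA cells, more per kilobase than Dlat. AABR07026654.1, described as an E1 alpha-like gene, had 8.06 ± 1.50 FPKM in CTSD AGEs, 9.44 ± 0.623 FPKM in vector AGEs and 11.1 ± 0.0965 FPKM in vector BSA cells. How the counting split reads between copies is not given in the sources used here, so the Dlat and Pdha1 values are uncertain by that much. With the copies added in, a check chosen after seeing the data, Pdha1 fell by 0.38 against vector AGEs cells under CTSD (limma adjusted p = 0.000703), and the Dlat change was 0.14 (adjusted p = 0.0506).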

How the data were processed

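The data are RNA-seq of 9 libraries. Per the labels' protocols, poly-A RNA was captured on poly-T beads and made into libraries with the NEBNext Ultra kit. The deposited values are FPKM computed by the authors per gene. The submitters' processing notes name the mouse build mm10, while the gene identifiers and positions in the file are those of rat, so positions are given as deposited without a build. Aligner, counter, annotation release and use of strand: not given in the sources used here. No further columns of per-sample values were present.

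The members and the gene lists were chosen with earlier results of these data known. FPKM times gene length gave whole fragments (within 0.1 of a whole number for 99.1% to 99.4% of the values below 200 fragments), hence the depths of 4492416 to 5341647 fragments. A gene of 1 kilobase with 3 fragments has 0.562 to 0.668 FPKM in these libraries. For the 8 genes, counting error in the lowest library was 2.70% to 5.88% of the value and covers counting only.

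The 8532 genes that reached 1 FPKM in 3 or more of the 9 libraries were tested. A model with 1 mean per group over all 9 libraries was fitted to log2(FPKM + 1) by limma 3.58.1 (R 4.3.3) with a variance trend and two-sided tests, and adjusted by Benjamini-Hochberg over all tested genes of a contrast. The script was tested on simulated data. Beside the 8 genes and Ctsd, the genes named are the up to 3 called genes with the largest change from each of 10 lists, rows listed at 0, and the 3 tested genes closest to each of the 2 members with the smallest adjusted p. The lists are subunits of the complex, its kinases and phosphatases, cycle enzymes, pyruvate entry and alternative fates, cytosolic counterparts and shuttles, glutamine entry, lipoate synthesis, other 2-oxo acid dehydrogenases, mitochondrial calcium entry, and mitochondrial gene regulators. Other genes were named after their values were seen: Idh3b, Idh3g, Sdha, Sdhb, Mpc1, Pdk4, LOC103693780, the 2 similar rows, and Sdhc, Sdhd and Ogdhl. Some genes picked by the rule are not reported here.

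Same-numbered libraries of vector AGEs and vector BSA cells deviated together across genes, though weakly (correlations 0.135, 0.142 and 0.152). These numbers were therefore treated as a possible pairing, which the labels do not state. The main fit did not use it, and a fit with replicate as a block was an alternative. Further alternatives were quantile normalization, median-of-ratios scaling, a filter at a mean of 5 FPKM or none, a pseudocount of 0.1, 2 groups alone, voom on the recovered fragments, removal of a trend with gene length, and leaving out each library. Adding the 2 similar rows to Dlat and Pdha1 (copies summed) was chosen after seeing the data. Promoters came from RefSeq on GRCr8. Python 3.11.15, pandas 2.3.3, numpy 2.4.6 and matplotlib 3.10.9 were used.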

Additional observations from a re-analysis of the deposited data

How the results depend on the processing

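All 5 calls among the 8 genes for CTSD AGEs against vector AGEs cells held under every alternative run, with each library left out included. For CTSD AGEs against vector BSA cells, 7 were called, 6 with the length trend removed (Mdh2 lost, adjusted p = 0.0551) and 5 to 6 with a library left out. For vector AGEs against vector BSA cells, 1 was called (Dlat), 0 with the replicate block (adjusted p = 0.0618), 0 in the fit of 2 groups alone (0.0739), 0 with copies summed (0.0614), and 0 to 1 with a library left out; at an unadjusted p under 0.05 limma gave 1 of the 8, and voom called 1. The count of all called genes in that comparison was 1277, and 760 to 1605 with a library left out (760 and 837 without vector AGEs replicates 1 and 2, and 806, 837 and 804 without vector BSA replicates 1, 2 and 3); it was 1213 with the replicate block. The block changed no other call among the 8 genes in any comparison. Scaling moved the balance of calls: 60.8% of calls were higher for CTSD AGEs against vector AGEs cells and 49.0% with median-of-ratios scaling, and 40.4% for vector AGEs against vector BSA cells, with 58.9% under median-of-ratios scaling. The median of all genes moved by under 0.1 in each case. Small log2 changes of vector AGEs against vector BSA cells changed sign: with a library left out Cs ranged over -0.026 to 0.053 and Dld over -0.10 to 0.22, and Pdk2 gave 0.0020 with median-of-ratios scaling. The cause was not tested. Depth limits scarce genes such as Pdhx, Pdk4, Mecr and Gls2, with 12, 15, 16 and 23 fragments in the lowest library. For the replicate numbers of CTSD AGEs against vector AGEs cells the correlations were 0.080, -0.035 and 0.074, and those libraries were not taken as paired.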

Other observations

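Genes around the complex and the cycle also differed between CTSD AGEs and vector AGEs cells. Of 11 cytosolic counterparts and shuttles, 3 were called higher and 2 lower, while 18.6% of all tested genes were called higher and 12.0% lower. Slc25a1, which exports citrate from mitochondria, had 80.5, 68.1 and 67.5 FPKM in CTSD AGEs libraries, 40.9, 37.2 and 38.2 FPKM in vector AGEs libraries, and 50.6, 48.9 and 53.1 FPKM in vector BSA libraries. It rose by a log2 change of 0.87 against vector AGEs cells (limma adjusted p = 3.4e-05). Acly, which cleaves that citrate in the cytosol, averaged 309 ± 7.95 FPKM in CTSD AGEs, 214 ± 2.48 FPKM in vector AGEs and 229 ± 7.33 FPKM in vector BSA cells, and rose by 0.53. Of 9 tested genes of pyruvate entry and alternative fates, Pck2 and Pc, which act around oxaloacetate, rose by 0.52 and 0.43, and Me2, a mitochondrial malic enzyme, fell by 0.52. Mpc1, a subunit of the mitochondrial pyruvate carrier, overlapped between groups (log2 change 0.17, 95% confidence interval -0.44 to 0.78). Among genes of glutamine entry, Gls2, at 1.55 to 3.96 FPKM, rose by 0.66 (limma adjusted p = 0.0180, and 0.0553 to 0.0611 without CTSD AGEs replicate 2 or vector AGEs replicate 2 or 3). Among genes of mitochondrial calcium entry, Smdt1 rose by 0.46 and Mcu, the pore, fell by 0.33, a call lost without any 1 CTSD AGEs library or vector AGEs replicate 1 or 3 (adjusted p = 0.0526 to 0.101). Of 5 tested regulators, Pprc1 and Esrra rose by 0.36 and 0.28 (Pprc1 was lost without CTSD AGEs replicate 1 or vector AGEs replicate 1, adjusted p = 0.0505 and 0.0567), 1 of 6 other 2-oxo acid dehydrogenase genes did (Bckdha, 0.37), and of 2 tested lipoate genes Mecr did (0.55, limma adjusted p = 0.0321, 0.0594 with no filter, 0.0716 with voom, and up to 0.105 with a library left out).

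Under AGEs, Pck2 and Gpt2, which encode mitochondrial enzymes of phosphoenolpyruvate and alanine formation, fell by 0.78 and 0.54 in vector AGEs against vector BSA cells (limma adjusted p = 0.000316 and 0.00883). Pck2 had 30.3, 31.6 and 27.0 FPKM in vector AGEs libraries, against 50.3, 51.4 and 52.2 FPKM in vector BSA libraries, with no overlap. Slc25a1 fell by 0.38 and Slc25a12, the aspartate-glutamate carrier, rose by 0.25 (limma adjusted p = 0.00862 and 0.00383). This comparison shares the vector AGEs libraries with the one before.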
